A study of Mus musculus with 4 samples.

Results

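The genes described here are 29 genes of cholesterol synthesis and sterol regulation, chosen by name from the known pathway, with earlier results of these data known. They comprise 20 enzymes that build cholesterol from acetyl-CoA, 5 genes of the SREBP control system and 4 genes of sterol transport, storage and lipoprotein uptake. All 29 were found on the arrays, with 44 probes, and all 29 were among the 25296 genes tested. Their mRNA was measured in whole mouse kidney with 1-colour Agilent arrays in a model of membranous nephropathy (MN), where immune deposits form on the podocyte side of the glomerular filter.

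The MN group held 2 samples and the control group 2 samples, with 1 array for each sample. All mice were female BALB/C mice, 6 weeks old per the labels, and both groups were first immunized with 0.2 mg of cationic bovine serum albumin (cBSA) emulsified in complete Freund's adjuvant. Starting 2 weeks later, MN mice were given intravenous cBSA over 6 weeks, in doses of 13 mg/kg repeated 3 times weekly, and control mice received vehicle, which the labels name saline in one place and PBS in another. The comparison therefore addresses the repeated intravenous antigen, since the control mice carry the same first immunization. Nothing in the labels ties an array to an animal of its own. The p-values below therefore reflect only how far these samples differ within a group, which may be technical.

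Cholesterol is made in the endoplasmic reticulum by a long chain of enzymes. Acetyl-CoA is first turned into mevalonate and then into isoprenoid units, which are joined into squalene, closed into the ring system of lanosterol and trimmed stepwise to cholesterol. Most genes of the chain are switched on by SREBP-2, the product of Srebf2, while SREBP-1 mainly drives fatty acid synthesis. When membranes are rich in sterol, the Insig proteins hold the escort protein Scap and its SREBP cargo in the endoplasmic reticulum. When sterol is short, Scap takes SREBP to the Golgi, where it is cut to release the active factor. The liver X receptors (LXR) act on the other side of the balance. They are activated by oxysterols and induce genes of sterol export, such as Abca1, as well as Srebf1 and Mylip. In the kidney, proximal tubule cells also take up filtered proteins with their lipid cargo in bulk.

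Promoter sequences are shown for the 6 enzyme and SREBP control genes with the smallest unadjusted p among those of these roles whose values are given on every array, and for Abca1 and Hmgcs1, which were added after values and motifs were seen. Each is the RefSeq window of 300 bases around an annotated start (250 bases before it and 50 from it on, assembly GRCm38.p6). Capitals mark every match, on either strand, to a sterol regulatory element searched as TCACNCCAC, to the CCAAT box (ATTGG on the other strand), or to an LXR-type repeat searched as a pair of GGTNA motifs in the same direction 5 bases apart. The Idi1 window lies at chr13:8885356-8885655 on the plus strand, that of Tm7sf2 at chr19:6067801-6068100 on the minus strand and that of Hsd17b7 at chr1:169969156-169969455 on the minus strand. The Cyp51 window lies at chr5:4104648-4104947 on the minus strand, that of Insig1 at chr5:28071162-28071461 on the plus strand and that of Hmgcs1 at chr13:119690101-119690400 on the plus strand. The Abca1 window lies at chr4:53159846-53160145 on the minus strand. The Srebf1 window lies at chr11:60210422-60210721 on the minus strand, and it is the 1 of the gene's 3 listed starts that holds the LXR-type repeat.
Idi1: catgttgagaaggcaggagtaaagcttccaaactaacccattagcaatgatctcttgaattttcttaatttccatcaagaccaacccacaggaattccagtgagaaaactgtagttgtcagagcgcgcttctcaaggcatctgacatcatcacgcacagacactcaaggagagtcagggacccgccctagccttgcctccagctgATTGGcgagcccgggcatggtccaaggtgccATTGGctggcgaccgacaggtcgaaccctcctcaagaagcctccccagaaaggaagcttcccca
Tm7sf2: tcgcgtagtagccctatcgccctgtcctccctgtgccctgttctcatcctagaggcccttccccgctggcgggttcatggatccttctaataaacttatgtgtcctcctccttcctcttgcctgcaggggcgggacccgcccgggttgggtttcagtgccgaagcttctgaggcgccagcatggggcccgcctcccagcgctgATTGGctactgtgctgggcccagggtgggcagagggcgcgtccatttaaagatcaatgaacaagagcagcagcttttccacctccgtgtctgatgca
Hsd17b7: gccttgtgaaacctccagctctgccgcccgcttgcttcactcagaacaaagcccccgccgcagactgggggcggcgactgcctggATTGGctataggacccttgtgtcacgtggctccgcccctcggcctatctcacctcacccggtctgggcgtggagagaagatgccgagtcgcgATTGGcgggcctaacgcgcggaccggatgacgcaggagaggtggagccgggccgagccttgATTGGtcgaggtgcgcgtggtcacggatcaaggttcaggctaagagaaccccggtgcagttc
Cyp51: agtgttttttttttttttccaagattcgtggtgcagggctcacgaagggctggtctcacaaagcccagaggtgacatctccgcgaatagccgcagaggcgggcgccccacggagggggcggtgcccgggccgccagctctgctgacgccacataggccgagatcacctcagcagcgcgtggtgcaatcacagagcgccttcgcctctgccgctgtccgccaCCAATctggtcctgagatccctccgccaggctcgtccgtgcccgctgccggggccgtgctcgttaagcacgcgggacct
Insig1: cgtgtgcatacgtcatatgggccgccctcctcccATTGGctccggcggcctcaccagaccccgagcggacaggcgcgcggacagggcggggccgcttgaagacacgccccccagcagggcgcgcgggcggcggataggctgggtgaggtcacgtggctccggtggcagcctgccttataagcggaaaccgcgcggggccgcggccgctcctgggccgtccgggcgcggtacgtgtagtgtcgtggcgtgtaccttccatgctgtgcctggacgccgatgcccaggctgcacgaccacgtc
Hmgcs1: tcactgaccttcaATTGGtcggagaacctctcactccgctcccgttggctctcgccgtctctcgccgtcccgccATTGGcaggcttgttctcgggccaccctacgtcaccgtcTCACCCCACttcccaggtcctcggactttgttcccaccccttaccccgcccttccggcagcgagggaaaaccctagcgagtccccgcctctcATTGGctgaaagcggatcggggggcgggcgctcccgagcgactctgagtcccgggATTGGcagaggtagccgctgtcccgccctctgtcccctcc
Srebf1: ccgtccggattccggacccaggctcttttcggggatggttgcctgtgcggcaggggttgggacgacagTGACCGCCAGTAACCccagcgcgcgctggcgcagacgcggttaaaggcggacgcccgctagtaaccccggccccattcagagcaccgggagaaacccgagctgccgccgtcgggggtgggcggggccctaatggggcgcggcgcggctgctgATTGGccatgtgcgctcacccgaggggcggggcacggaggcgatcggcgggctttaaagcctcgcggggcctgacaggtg
Abca1: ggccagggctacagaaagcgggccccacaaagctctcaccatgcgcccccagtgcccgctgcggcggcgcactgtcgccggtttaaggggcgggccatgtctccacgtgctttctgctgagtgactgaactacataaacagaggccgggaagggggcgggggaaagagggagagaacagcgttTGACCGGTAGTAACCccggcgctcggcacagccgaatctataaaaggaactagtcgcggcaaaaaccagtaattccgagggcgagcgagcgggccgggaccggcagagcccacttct

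Of the 29 genes, 25 had at least 1 window in the table, 33 windows in all. Among those 25 genes the CCAAT box, the binding site of NF-Y, which works beside SREBP at many promoters, was present in a window of 22 (88%), against 41.1% of all 27025 genes with a window. The sterol regulatory element as spelled here was found in Hmgcs1 alone, with its first base 137 bases before the start. That is 4% of the 25 genes, against 1.44% of all genes with a window, and 1.24% of all 32851 windows held it. The LXR-type repeat was found in Abca1, 67 bases before the start, and in Srebf1, 182 bases before the start. These are 8% of the 25 genes, against 0.818% of all genes with a window, and 0.718% of all windows held it. Abca1 and Srebf1 are named above as genes that LXR induces, and the motifs were chosen with earlier results of these data known. The shares are thus a description and cannot serve as a test. These matches describe letters in the windows, and binding was not measured. Over the tested genes with a window, the median difference (MN minus control, log2) was -0.00 for the 88 genes whose windows held the LXR-type repeat and -0.04 for the 13609 whose windows did not, and 47.7% and 40.8% of these genes had a higher value in MN. For the sterol regulatory element the medians were -0.06 over 192 genes with it and -0.04 over 13505 without it. For the CCAAT box the median was -0.04 over 5758 genes with it and also -0.04 over 7939 without it, and 40.4% and 41.1% had a higher value.

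Levels are given as log2 of the background-corrected spot signal relative to the 75th percentile of the same array, so that 0 is the level of a fairly bright spot and 1 unit is a doubling. Differences are MN minus control on this log2 scale, with the standard error from limma, a linear model that shares information on the spread across genes. Over all 25296 genes the median difference was -0.05, and 61.4% had a lower value in MN. At an adjusted p under 0.05, 5 genes (0.0198%) were called, all higher in MN, and none of the 29 was among them. At an unadjusted p under 0.05, 883 genes (3.49%) were lower and 895 (3.54%) higher. After quantile normalization this split was 611 lower and 984 higher. Between 63.1% and 64.0% of spots were well above background on the MN arrays, against 65.9% and 79.5% on control arrays 1 and 2, so that control array 2 stood apart. All 29 genes were well above background on all 4 arrays. Each slide, as named in the file headers, carried replicate 1 or replicate 2 of both groups, and values within each slide are given beside the main results.

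Most of the 29 genes had a somewhat lower value in MN kidneys, and the sterol-trimming enzymes all did, whereas Abca1, Srebf1, Mylip and Lss had higher values on both MN arrays than on either control array. The median difference of the 29 genes was -0.15, and 22 (75.9%) had a lower value, against -0.05 and 61.4% for all genes. Relative to each gene's own mean over the 4 arrays, the median level of the 29 genes was -0.03 and -0.10 on the MN arrays and 0.12 and 0.03 on the control arrays. The median difference was -0.13 on slide 1 and -0.12 on slide 2, beside medians of -0.02 and -0.08 for all genes. On both slides 21 genes (72.4%) were lower in MN, against 40.1% of all genes, and 5 were higher on both. Both MN arrays lay below both control arrays for 14 genes (48.3%), against a background of 19.9%, and above both for 4 genes (13.8%), against 13.2%.

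The sizes were small. Beyond a log2 difference of 0.5 in either direction lay 2 of the 29 genes (6.90%), Abca1 and Srebf1, compared with 11.7% of all genes. At an unadjusted p under 0.05, 3 of the 29 (10.3%) were lower in MN, namely Insig1, Idi1 and Tm7sf2, against 3.49% of all genes, and 1 (3.45%) was higher, namely Abca1, against 3.54%. Of these, Insig1 was at an unadjusted limma p of 0.060 with normexp background correction, 0.071 with quantile normalization, 0.051 with an intensity trend and 0.050 without the filter on dim probes. Tm7sf2 was at 0.072 as the mean of its probes, 0.207 by its second probe and 0.058 without the filter. With limma and Benjamini-Hochberg adjustment over all genes none was called, and the smallest adjusted p was 0.371, for Abca1. With the slide as a block, 6 of the 29 (Idi1, Tm7sf2, Insig1, Cyp51, Hsd17b7 and Stard4) were lower and 3 (Abca1, Srebf1 and Mylip) higher at an unadjusted p under 0.05, where 9.05% of all genes were lower and 6.29% higher, and again none was called, the smallest adjusted p from limma being 0.173. Leaving out 1 array left 1 gene at an unadjusted p under 0.05 without MN array 1 and without MN array 2, and 2 without control array 1 and without control array 2. In data of this size simulated with independent arrays and fitted without a block, genes given a true log2 change of 1 were called in 0.2% of cases. Differences of the size seen here were thus hardly detectable as calls in that fit with 2 arrays a group. The fit with the slide as a block was not simulated. The difference of 19 of the 29 genes moved by over 1.5 times, or turned, when 1 array was left out, and that of the other 10 (Idi1, Fdft1, Sqle, Tm7sf2, Ebp, Scap, Insig1, Stard4, Abca1 and Mylip) did not.

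**Figure D1:**
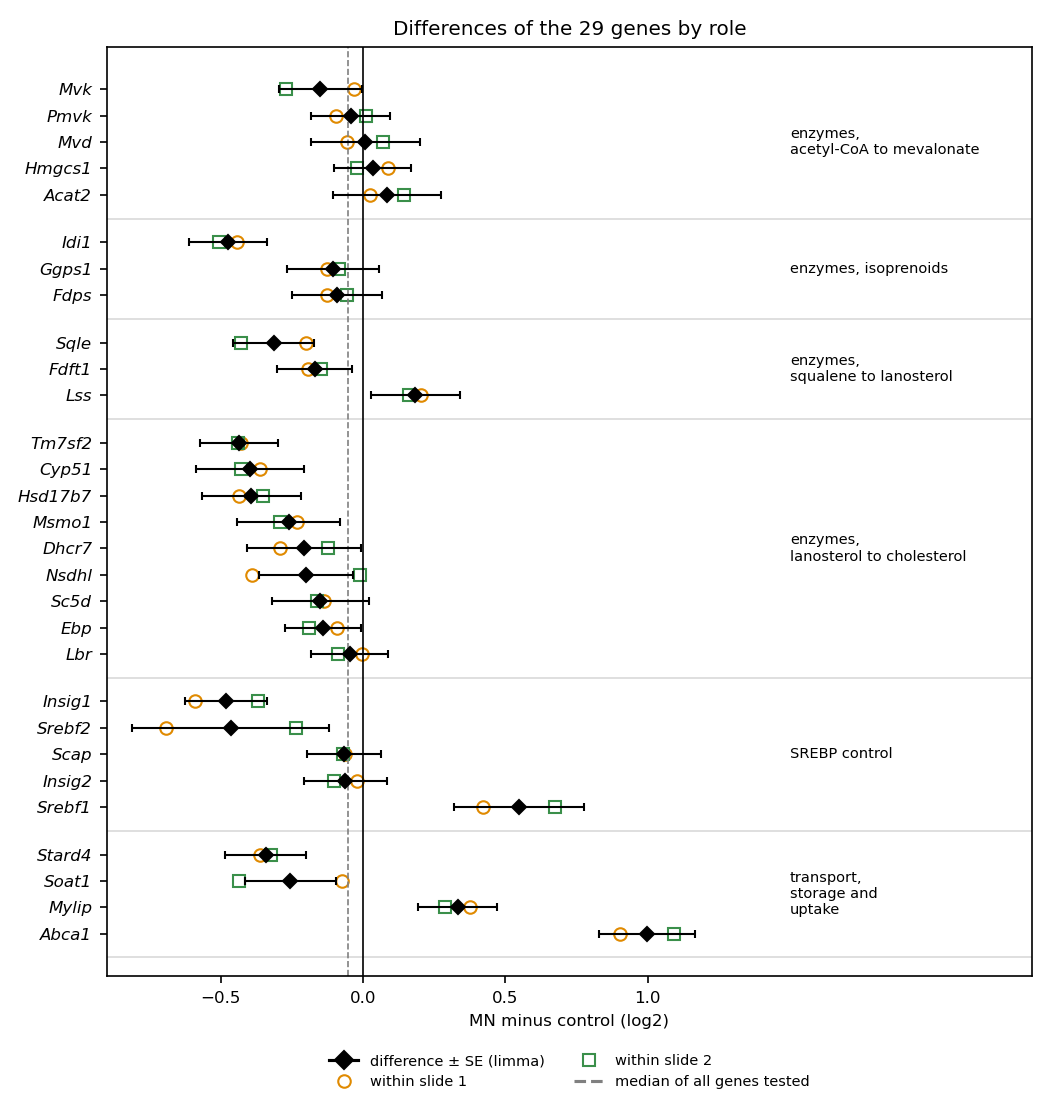
Differences of the 29 genes by role. The horizontal axis is MN minus control in log2 units, filled diamonds with bars are the limma difference ± SE (n = 2 arrays per group), open circles and squares are the differences within slide 1 and slide 2, and the dashed line is the median of all genes tested (-0.05). The 9 enzymes from lanosterol to cholesterol all lie left of 0, and Abca1 lies farthest right at 0.998.

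The first steps of the pathway showed no common direction. Acat2, which joins acetyl-CoA units, differed by 0.08 ± 0.19 (SE), Hmgcs1, which makes HMG-CoA, by 0.03 ± 0.13, and Mvd, which makes isopentenyl diphosphate, by 0.01 ± 0.19. Mvk, the mevalonate kinase, differed by -0.15 ± 0.15 and Pmvk, the phosphomevalonate kinase, by -0.04 ± 0.14. Of these 5 genes 3 had a higher and 2 a lower value in MN, and their median was 0.01. Only for Mvk (20% of the 5) did the groups not overlap, near the 19.9% of all genes that were lower without overlap. Hmgcs1, Mvd and Pmvk had opposite signs on the slides. A much dimmer probe of Hmgcs1, at -4.55 to -4.15 on the 4 arrays, gave -0.19. It was not well above background on MN array 2 and gave 0.01 on slide 1. A second probe of Pmvk gave 0.03, so the direction of Pmvk also depended on the probe.

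The isoprenoid enzymes were all lower in value, and Idi1 stood out among them. Idi1 encodes isopentenyl diphosphate isomerase, which makes the starter unit for chain growth, and its probe lies at chr13:8891524-8891583 on the plus strand (mm9, per the file headers). Its level was 1.57 and 1.46 on the MN arrays and 2.01 and 1.96 on the control arrays. Both MN values were below both control values, and the replicates of each group lay close together. The difference was -0.47 ± 0.14, 0.720 of the control level, with values of -0.44 on slide 1 and -0.51 on slide 2 (unadjusted p = 0.026, adjusted p = 0.591, limma). It ranged from -0.53 to -0.42 when each array was left out in turn. Fdps, the farnesyl diphosphate synthase, differed by -0.09 ± 0.16, and Ggps1, which makes the geranylgeranyl group used to anchor small GTPases, by -0.11 ± 0.16. The groups overlapped for both.

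At the step into sterols, Fdft1 (squalene synthase, the first enzyme committed to sterols) differed by -0.17 ± 0.13 and Sqle (squalene epoxidase, the oxygen-requiring step that follows) by -0.31 ± 0.14. Neither overlapped between groups, where 19.9% of all genes were lower without overlap. Lss, which closes the rings to give lanosterol, went the other way, with a difference of 0.18 ± 0.16, 0.20 on slide 1 and 0.16 on slide 2, and it was the sole enzyme of the 20 with both MN arrays above both control arrays. Without MN array 1 it was 0.0885. The unadjusted p was 0.268 for Fdft1, 0.094 for Sqle and 0.306 for Lss (limma), so none of these differences was larger than the error allows to call.

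The enzymes that turn lanosterol into cholesterol gave the most uniform picture, with all 9 lower in value in MN on both slides, a median of -0.21, and 6 of 9 (66.7%) without overlap between groups. Among all genes 40.1% were lower on both slides and 19.9% were lower without overlap. The 9 include Lbr at -0.0035 on slide 1 and Nsdhl at -0.01 on slide 2. Tm7sf2, a sterol reductase that removes a ring double bond after demethylation, had levels of 2.07 and 2.13 in MN and 2.50 and 2.57 in control. The MN arrays were both lower, and the difference was almost the same on the slides, -0.43 and -0.44. It amounted to -0.44 ± 0.14, or 0.739 of the control level (unadjusted p = 0.033, adjusted p = 0.622, limma), and a dimmer probe of the gene gave -0.25. The brighter probe lies at chr19:6062882-6062941 on the minus strand (mm9).

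Cyp51, the cytochrome P450 that demethylates lanosterol, had levels of 1.02 and 0.71 in MN and 1.38 and 1.14 in control. The groups did not overlap, although replicates on the different slides lay apart, with an SD of 0.22 in MN and 0.17 in control. The difference was -0.40 ± 0.19 (unadjusted p = 0.106, limma), -0.36 on slide 1 and -0.43 on slide 2, and adding the slide as a block gave an unadjusted p of 0.023. Without MN array 2 the difference was -0.24.

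Hsd17b7, a reductase of the demethylation complex, had levels of -0.24 and -0.43 in MN and 0.19 and -0.08 in control. Again both MN arrays lay below both control arrays. The difference was -0.39 ± 0.17 (unadjusted p = 0.087, limma), with -0.43 on slide 1 and -0.35 on slide 2, and its dimmer probes gave -0.20 and -0.09. The probe at -0.09 gave 0.22 on slide 1 and -0.40 on slide 2. Msmo1, the oxidase of the same complex, listed under its older name Sc4mol on slide 1, differed by -0.26 ± 0.18, and Nsdhl, its dehydrogenase, by -0.20 ± 0.16. Without MN array 2 the Msmo1 difference was -0.12, and without control array 1 it was -0.15. The groups overlapped for neither gene, but the Nsdhl difference came from slide 1, at -0.39, with -0.01 on slide 2.

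Of the last steps, Ebp, the sterol isomerase, differed by -0.14 ± 0.13 without overlap. Sc5d, the desaturase that follows it, differed by -0.15 ± 0.17, and Dhcr7, the reductase that yields cholesterol, by -0.21 ± 0.20, both with overlapping groups. Without control array 1 the difference of Dhcr7 was -0.0188 and that of Sc5d -0.0452. Lbr, a nuclear membrane protein that shares the sterol reductase activity of Tm7sf2, differed by -0.05 ± 0.14. Its value was near that of the median gene and turned to 0.02 under another background correction (normexp).

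**Figure D2:**
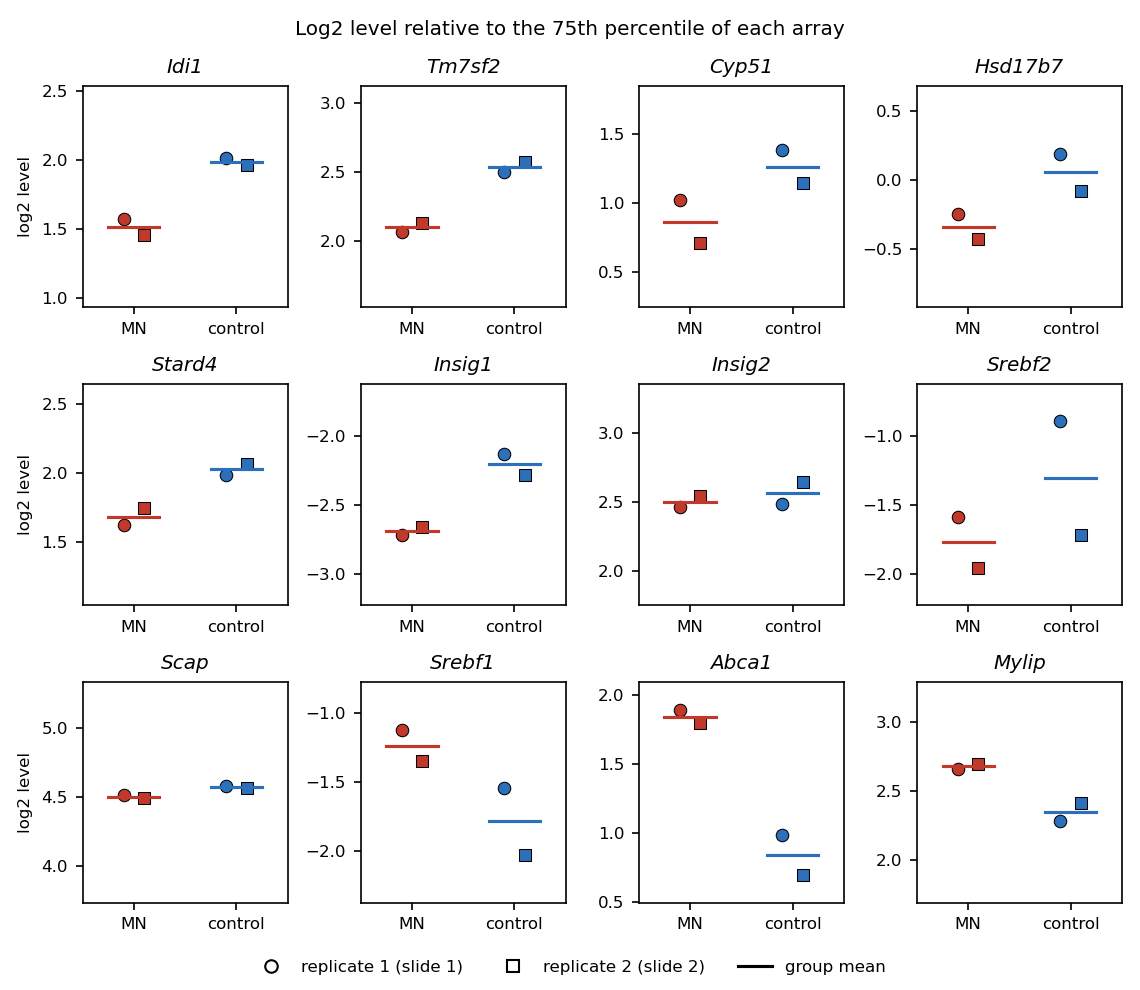
Levels of 12 genes on each array. The vertical axes give log2 level relative to the 75th percentile of each array, all panels span the same range of log2 units, circles are replicate 1 (slide 1), squares are replicate 2 (slide 2) and lines are group means. MN arrays lie below control arrays for Idi1, Tm7sf2, Cyp51, Hsd17b7, Stard4, Insig1 and, by a small margin, Scap, and above them for Srebf1, Abca1 and Mylip, while Insig2 and Srebf2 overlap.

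In the SREBP control system, Insig1 and Srebf2 had lower values in MN, Srebf1 had a higher value, and Scap and Insig2 lay close to the median gene. Insig1 encodes the retention protein whose own gene is a target of SREBP. Its level was -2.72 and -2.65 in MN and -2.13 and -2.28 in control. Both MN arrays were lower, on a probe that was dim but well above background on all arrays. The difference was -0.48 ± 0.14, 0.717 of the control level, and -0.59 and -0.37 on slides 1 and 2 (unadjusted p = 0.029, adjusted p = 0.603, limma). With normexp background correction it was -0.33. The probe lies at chr5:28404246-28404305 on the plus strand (mm9).

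Insig2, the second retention protein, which does not depend on SREBP in the same way, had levels of 2.46 and 2.54 in MN and 2.48 and 2.65 in control. These values overlapped, and the difference was -0.06 ± 0.15. Scap, the escort protein, had levels of 4.51 and 4.49 in MN and 4.58 and 4.56 in control. The groups did not overlap because the replicates were nearly equal, but the difference of -0.07 ± 0.13 was close to the median of all genes.

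Srebf2, which encodes SREBP-2, had levels of -1.58 and -1.95 in MN and -0.89 and -1.72 in control. The groups overlapped, and the control arrays lay far apart. The difference was -0.46 ± 0.35 (unadjusted p = 0.250, limma), -0.69 on slide 1 and -0.24 on slide 2, and a dimmer probe gave -0.30. The value rested on the control arrays, since it was -0.88 without control array 2 and -0.05 without control array 1.

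Srebf1, which encodes SREBP-1, had levels of -1.12 and -1.35 in MN and -1.54 and -2.02 in control. Both MN arrays lay above both control arrays. The difference was 0.55 ± 0.23, or 1.46-fold (unadjusted p = 0.075, adjusted p = 0.788, limma), with 0.42 on slide 1 and 0.67 on slide 2. Without control array 2 it was 0.31. The probe, at chr11:60012664-60012723 on the minus strand (mm9), was not assigned to one of the gene's starts.

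Among the genes of sterol transport, storage and uptake, Abca1 and Mylip had higher values in MN and Stard4 and Soat1 lower ones, and none of the 4 overlapped between groups, where 13.2% of all genes were higher and 19.9% lower without overlap. Abca1 encodes the transporter that hands cellular cholesterol to lipid-poor apolipoproteins, and its probe lies at chr4:53043944-53044003 on the minus strand (mm9). Its level was 1.89 and 1.80 in MN and 0.99 and 0.70 in control. Both MN arrays stood clearly above both control arrays. The difference of 0.998 ± 0.17, or 2.00-fold, was the largest of the 29 genes in size (unadjusted p = 0.0042, adjusted p = 0.371, limma). It was 0.90 on slide 1 and 1.09 on slide 2, and between 0.85 and 1.14 when each array was left out in turn. Over the alternatives in processing, variance model and samples its adjusted p from limma was at least 0.173.

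Mylip, also called Idol, marks lipoprotein receptors for degradation and is a target of LXR. Its level was 2.66 and 2.70 in MN and 2.29 and 2.41 in control. The replicates lay close together and the groups apart. The difference was 0.33 ± 0.14 (unadjusted p = 0.075, adjusted p = 0.787, limma), 0.38 on slide 1 and 0.29 on slide 2, and a dimmer probe gave 0.29.

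Stard4, a cytosolic carrier of cholesterol whose gene is a target of SREBP-2, had levels of 1.62 and 1.75 in MN and 1.99 and 2.07 in control. The groups did not overlap. The difference was -0.34 ± 0.14 (unadjusted p = 0.072, adjusted p = 0.781, limma), -0.36 and -0.32 on the slides, and a second probe gave -0.36. Soat1, which esterifies cholesterol for storage in droplets, differed by -0.26 ± 0.16, but by -0.07 on slide 1 and -0.44 on slide 2.

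Related genes outside the 29 were described by lists of the same pathway. Of their 60 genes 59 were tested, 34 with a lower and 25 with a higher value in MN, and the median was -0.05, that of all genes. None was called by limma at an adjusted p under 0.05, and 3, all higher, had an unadjusted p under 0.05. In the list of LXR receptors, targets and efflux genes, 7 of 8 were tested (Abcg8 was not well above background on any array), 4 with a higher and 3 with a lower value. Abcg1, which exports cholesterol to high-density lipoprotein, had levels of 0.97 and 0.65 in MN and -0.32 and -0.45 in control. Its groups lay wide apart, by 1.19 ± 0.18 (unadjusted p = 0.0026, adjusted p = 0.345, limma). Abcg5, the partner of Abcg8 in sterol export, had levels of -3.95 and -3.15 in MN and -4.65 and -4.65 in control, a 2.14-fold difference with an SE of 0.31 on the log2 scale (unadjusted p = 0.025, adjusted p = 0.584, limma). The Abcg5 probe was dim, though well above background on all 4 arrays. Its MN arrays lay apart from each other, but both above the control arrays. The receptor genes themselves did not have higher values, with -0.29 for Nr1h2 and -0.06 for Nr1h3, and neither did Lpcat3 at -0.04, while Pltp was at 0.04 and Arl4c at 0.17.

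Of 14 lipogenic targets of SREBP-1, 8 had a lower and 6 a higher value, with a median of -0.07. Scd2, a fatty acid desaturase, had levels of 2.74 and 2.60 in MN and 2.07 and 1.95 in control, without overlap, a difference of 0.66 ± 0.15 (unadjusted p = 0.011, adjusted p = 0.470, limma). Fasn, the fatty acid synthase, differed by 0.37 ± 0.14 (unadjusted p = 0.056), whereas Scd1 was at -0.28 and Fads1 at -0.30, so the list had no common direction. The 8 genes of SREBP cleavage and sterol-regulated degradation had a median of -0.04, with Syvn1, a ubiquitin ligase of the endoplasmic reticulum, at 0.31 ± 0.16 (0.0914 by another probe) and Mbtps2, the second protease that cuts SREBP, at -0.15 ± 0.17, although another probe of Mbtps2 gave 0.62. The 10 genes of sterol trafficking and lipoprotein uptake had a median of 0.02, with Lipa, the lysosomal lipase, at 0.21 ± 0.15 and Scarb1, a lipoprotein receptor, at -0.16 ± 0.20 (-0.0325 by another probe). The 6 oxysterol and bile acid enzymes had a median of -0.06, with Cyp39a1, an oxysterol hydroxylase, at -0.36 ± 0.17 and Ch25h, which makes an oxysterol, at 0.20 ± 0.17. Branches that use isoprenoids for other ends (8 genes, median -0.03) and the electron donors and other helpers of sterol synthesis (6 genes, median -0.05) lay near the median of all genes. Their most distant members were Rabggtb, a prenyltransferase subunit, at -0.26 ± 0.19 and Dhdds, of dolichol synthesis, at 0.19 ± 0.14, and Cyb5a, a cytochrome that passes electrons to the sterol oxidases, at -0.16 ± 0.24 and Por, the P450 reductase, at -0.11 ± 0.16.

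**Figure D3:**
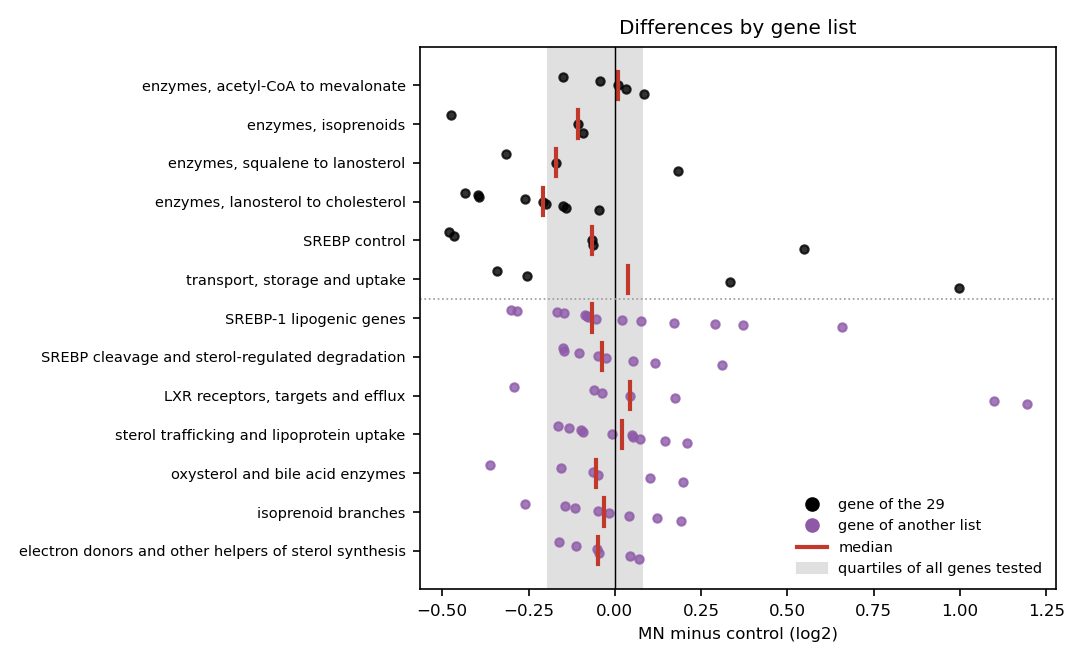
Differences by gene list. The horizontal axis is MN minus control in log2 units, each point is 1 gene, black for the 29 genes by role and purple for the related lists, red bars are list medians and the grey band spans the quartiles of all genes tested (-0.19 to 0.08). The median of the lanosterol-to-cholesterol enzymes (-0.21) lies just outside the band, and the points beyond 0.9 are Abca1, Abcg1 and Abcg5.

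Whole kidney mixes many cell types, and in such samples fewer cells of a type and less RNA per cell cannot be told apart. The tissue label was borne out by tubule markers, whose summed signal (relative to the 75th percentile of each array, linear scale) was 580 and 715 in MN and 549 and 737 in control for 7 proximal tubule genes, and 340 and 363 in MN and 321 and 367 in control for 6 of 7 listed genes of later segments. These sums did not separate the groups, though Slc7a13 was not well above background on the MN arrays. The later-segment sums are mostly Umod, at 0.07. Calb1, at -0.48 (-0.50 by another probe), and Slc4a1, at -0.28, were lower without overlap, 33.3% of the 6 genes. Of the 7 proximal genes Slc7a13 and Slc22a6 (-0.19) were so, 28.6%, against 19.9% of all genes. No gene of either list was higher without overlap. Among markers of other cells, sums did not overlap between the groups for the podocyte, adrenal cortex, adipocyte and hepatocyte lists. The macrophage sums overlapped. Of 6 podocyte markers 5 were higher in value in MN, with sums of 50.8 and 47.1 in MN and 29.5 and 27.4 in control, while Nphs1 was at -0.02. Of 9 adrenal cortex markers, from a steroid-making tissue rich in these enzymes, 6 were tested and 5 of them were lower in MN, with sums of 1.28 and 1.25 in MN and 1.53 and 1.67 in control. Star was higher, at 0.15 (0.47 by another probe). Cyp11b1, counted as lower, was at 0.59 on slide 1 and -1.34 on slide 2. Cyp11b2 was not well above background on any array, Cyp11a1 and Mc2r were so on control array 2 alone, and Hsd3b1 was so on both control arrays and neither MN array. Of 9 adipocyte markers 6 were higher in MN, with sums of 27.2 and 26.7 in MN and 24.3 and 21.9 in control, and on control arrays Adipoq and Retn did not rise well above background, nor did Cfd on control array 1. The sums are mostly Fabp4, at -0.10, while Cfd was 122-fold higher in MN and Adipoq at least 22.9-fold (both adjusted p = 0.046, limma), the bound taken against the lowest signal well above background where the control probe lay below it. Cidec was 6.01-fold higher (adjusted p = 0.067). Cfd and Adipoq are 2 of the 5 genes called. Of 7 tested hepatocyte markers 7 were higher, with sums of 39.2 and 43.6 in MN and 25.4 and 26.7 in control, and Apoa1 was not well above background on any array. Of 7 macrophage markers 5 were higher, with sums of 25.5 and 28.3 in MN and 25.4 and 26.7 in control. The macrophage sums are mostly Csf1r, at -0.22. Ms4a7 was at 0.84, Mrc1 at 0.45 and Itgam at 1.13, and 2 of the 7 were lower. In this list 4 genes (57.1%) were higher without overlap and 1 (14.3%) lower, against 13.2% and 19.9% of all genes. Among the podocyte, adipocyte, hepatocyte and macrophage markers counted as higher, other probes of Synpo (-0.22), Fga (-0.14) and Itgam (-0.21 and -0.19) were lower. Other probes of Retn, Cidec (0.27), Apoa2, Serpina1a and Adgre1 were higher. Of 13 clock genes, which vary with the hour of collection, 9 were higher, with Per2 at 1.15 and Arntl at -1.14. The part of any of these in the values of the 29 genes was not tested.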

How the data were processed

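Total kidney RNA from 2 MN and 2 control samples carried Cy3 label on 1 array per sample, per the labels. The authors deposited scanner files of linear spot intensity, made with Agilent Feature Extraction 10.5.1.1, which removed background and spatial trends within an array but did not scale between arrays, per the file headers. Each array had 62976 spots, 59305 of them non-control spots of 55681 probes. A deposited series table gives log2 values, and how they were made is not stated in the sources used here. Across 55681 probes this table tracked the scanner log2 signal after 75th percentile scaling and centring on the control mean (correlation at least 0.9999, median absolute difference 0.0061 to 0.019 by column), with replicates 1 and 2 exchanged in both groups (column medians -0.03 and -0.04 for MN, 0.03 and -0.03 for control). Which order is right is unknown, and group means do not depend on it.

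The processed signal was divided by the array's own 75th percentile and put on a log2 scale. Control and non-uniform spots were left out, spots of a probe were averaged, and probes had to be well above background in at least 1 group, on both its arrays. A gene was its brightest kept probe by the mean of the 4 arrays. Genes were named by accession in a RefSeq table of GRCm38.p6 (28026 probes), by symbol (3418), by synonym (295) or as in the file (23942), and 1831 probes carried another name on slide 1. Two-sided tests used the lmFit and eBayes functions of limma 3.58.1 under R 4.3.3, with Benjamini-Hochberg adjustment across 25296 genes and a threshold of 0.05 (prior df 1.99, residual df 2). They were checked on 20 simulated data sets with 200 changed genes each. Figures were drawn with matplotlib 3.10.9, and tables made with pandas 2.3.3 and numpy 2.4.6, under Python 3.11.15.

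Slide, scan and replicate number coincide, and arrays of the same number deviated together, with a correlation of 0.63 over genes between their distances to the group means. The number of arrays limits the precision. The alternatives were normexp background correction (offset 50), quantile or median scaling, the deposited table, other filters, probe rules and variance models, a threshold of 0.1, the slide as a block, and each array left out. The members, the related lists, the markers and the motifs were chosen with earlier results of these data known. Values on every array are given for members at an unadjusted p under 0.05, the 10 with the largest absolute difference and the SREBP control genes. In each related list the genes at an unadjusted p under 0.05 and the 2 with the largest absolute difference are named; Scd1, Fads1, Nr1h2, Nr1h3, Lpcat3, Pltp and Arl4c were added after their values were seen.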

Additional observations from a re-analysis of the deposited data

How the results depend on the processing

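The median difference of the 29 genes was -0.15 and stayed between -0.17 and -0.10 under every alternative run, and 20 to 23 of the 29 had a lower value in MN. No member had an adjusted p under 0.05 under any of them. Members at an unadjusted p under 0.05 numbered 4, but 9 with the slide as a replicate block, 6 with an intensity trend, 3 with quantile normalization and with either other probe rule, 2 without the filter and 1 to 2 without 1 array. With normexp the 4 held Hsd17b7 in place of Insig1. The 5 genes called of all tested became 16 with an intensity trend, 15 with normexp, 20 with quantile normalization, 11 with median scaling, 22 at a threshold of 0.1, and 0 with no filter, with the stricter filter, with the replicate block or without any 1 array. Genes at an unadjusted p under 0.05 numbered 1778, against 1148 with normexp, 3879 with the block, 1805 with no filter, 1529 with the stricter filter and 905 to 1429 without 1 array. A left-out array leaves 1 sample in a group, assumed to vary like the others. Of 377 recomputed member differences 364 kept their direction, and 13, in 8 genes with small differences, turned. Many of the 377 could not turn. The slide block and the other filters repeated each member's main difference, as did the other probe rules for genes with 1 kept probe. Hmgcs1 was -0.0802 as the mean of its probes and -0.19 by its second probe, which was not well above background on MN array 2. Pmvk was 0.0303 by its second probe, and Lbr 0.0178 with normexp. Over the left-out arrays Acat2 lay between -0.0785 and 0.25, Mvd between -0.16 and 0.18, Fdps between -0.20 and 0.015, Pmvk between -0.10 and 0.0174, Insig2 between -0.14 and 0.0188, Lbr between -0.0957 and 0.00288, and Ggps1 between -0.21 and 0.000565. The cause was not tested. With 2 arrays a group and dim probes for Insig1, Srebf1 and Srebf2, differences of this size have wide errors.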
